A study of Mus musculus with 10 samples.

Results

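The cytosolic ribosomal protein genes were described as 1 group in sorted microglia, the resident macrophages of the brain. Members were the autosomal protein-coding genes of the GENCODE mouse annotation whose symbol is Rpl or Rps followed by a number, with an optional letter or l-form ending, together with Rpsa, Rplp0, Rplp1 and Rplp2. Kinases such as those with symbols starting Rps6k were not members. The rule gave 79 genes of 20696 autosomal protein-coding genes, without use of any measured value.

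All libraries used here came from wild-type C57/Bl6 brains, from microglia sorted as whole CD45+ CD11b+ CX3CR1+ cells. The trimethylation of lysine on histone H3 that marks active starts (H3K4me3) was measured by ChIP-seq in 2 libraries, replicates 1 and 2, each with its own peak list. PLAC-seq, which pulls down H3K4me3 chromatin and reads which distant DNA is ligated to it, was measured in 2 libraries that the authors merged when they listed interacting pairs of 5 kb bins. Input libraries entered only through the input columns of the peak lists, and the Hi-C libraries of wild-type and Sall1 enhancer knockout microglia were not analysed here, so nothing below compares genotypes.

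Every cell needs ribosomal proteins, which assemble with ribosomal RNA into the small and large subunits of the ribosome. The small subunit reads the mRNA, the large subunit joins amino acids, and the stalk of Rplp0, Rplp1 and Rplp2 receives the elongation factors. In mammals these genes are known for start sites that lie within a run of pyrimidines (C and T), the sequence that becomes the 5′ terminal oligopyrimidine tract of their mRNAs and places their translation under growth control. H3K4me3 is deposited on nucleosomes next to active starts, and mostly at CpG-rich promoters.

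The start sequences of some members carried this pyrimidine run and others did not, and both kinds are shown because the rest of the account refers to these promoters. Sequences were RefSeq promoter windows of GRCm38.p6, from 250 bases before to 50 bases after a start, and 59 of 79 members matched one. Below are 40 bases before and 20 bases from the start of Rpl14 (chr9:120571477-120571536, plus strand), Rpl27a (chr7:109519155-109519214, plus), Rpl19 (chr11:98026884-98026943, plus) and the paralogs Rps27l (chr9:66946046-66946105, plus) and Rpl22l1 (chr3:28805468-28805527, plus). Capitals mark a run of at least 8 pyrimidines that touches the 10 bases on either side of the start.
Rpl14: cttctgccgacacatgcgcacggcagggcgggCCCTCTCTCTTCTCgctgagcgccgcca
Rpl27a: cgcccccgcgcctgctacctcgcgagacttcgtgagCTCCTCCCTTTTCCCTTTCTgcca
Rpl19: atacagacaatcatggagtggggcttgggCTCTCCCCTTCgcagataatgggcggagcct
Rps27l: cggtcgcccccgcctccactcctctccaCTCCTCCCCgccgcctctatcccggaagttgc
Rpl22l1: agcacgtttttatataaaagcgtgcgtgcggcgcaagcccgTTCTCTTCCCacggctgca

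Members that were not marked in both replicates (below) had no such run. The same stretch is given for Rpl10l (chr12:66284382-66284441, minus strand), Rpl39l (chr16:10170188-10170247, plus) and Rpl3l (chr17:24727786-24727845, plus).
Rpl10l: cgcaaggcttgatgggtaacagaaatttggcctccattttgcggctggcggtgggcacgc
Rpl39l: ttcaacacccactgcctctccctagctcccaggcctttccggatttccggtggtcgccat
Rpl3l: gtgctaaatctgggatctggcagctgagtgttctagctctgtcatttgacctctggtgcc

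The third set shows the promoters at both ends of the H3K4me3 ranking, Rpsa with the highest mean value (chr9:120127616-120127775, plus strand) and Rpl41 with the lowest (chr10:128549159-128549318, minus). Each runs from 150 bases before to 10 bases from the start, with matches to the searched motifs in capitals. Within this stretch Rpsa held a CCAAT box in reverse complement, and Rpl41 held CCGGAAG, the core bound by ETS factors, and GGGCGG in reverse complement, the GC box. Elsewhere in its promoter window Rpsa also held CCGGAAG and GGGCGG, so both genes had these motifs.
Rpsa: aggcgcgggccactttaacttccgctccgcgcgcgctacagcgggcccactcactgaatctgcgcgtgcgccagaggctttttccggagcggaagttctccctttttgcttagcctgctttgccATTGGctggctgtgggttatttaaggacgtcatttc
Rpl41: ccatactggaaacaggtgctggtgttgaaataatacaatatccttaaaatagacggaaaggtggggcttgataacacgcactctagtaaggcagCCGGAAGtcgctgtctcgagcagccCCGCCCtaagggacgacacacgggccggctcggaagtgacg

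Over the 59 matched windows, the pyrimidine run was present in 26 members (44.1%), against 2095 of 15680 autosomal protein-coding genes (13.4%). Restricted to genes marked by H3K4me3, the shares were 46.4% of members and 13.2% of all. Among windows with a run, its median length was 11 bases in members and 9 bases in all genes. The longest run in a member had 21 bases.

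CCGGAAG and AAGATGG, searched on both strands, also had larger shares in members. CCGGAAG was found in 22 of 59 members (37.3%), against 12.6% of all genes. Among marked genes it was found in 37.5% of members and in 1827 of all 9630 matched genes (18.97%), so the contrast was smaller there. CCGGAAG and the pyrimidine run together were held by 12 members (20.3%) and by 1.56% of all genes. AAGATGG, the core of the YY1 site, was found in 15.3% of members and 6.44% of all genes. Among marked genes its shares were 16.1% in members and 7.17% in all.

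All motifs were searched on both strands. None of the remaining ones had a larger share in members both among all genes and among marked genes. GGGCGG was in 59.3% of members and 49.1% of all genes, and in 60.7% of marked members and 68.0% of all marked genes. CCAAT was in 30.5% of members and 38.3% of all genes, TATAAA in 6.78% and 12.9%, the E-box CACGTG in 8.47% and 8.07%, and the NRF1 core GCATGCGC in 5.08% and 3.81%. Among marked genes the shares in members and in all were 32.1% and 38.1% for CCAAT, 7.14% and 6.25% for TATAAA, 8.93% and 10.3% for CACGTG and 5.36% and 5.66% for GCATGCGC. The median GC content of the windows was 58.7% in marked members and 62.0% in all marked genes, and the median number of CG dinucleotides was 22.5 and 22.0. A match is a run of letters and was not tested as a binding site. The RefSeq start lies 77 bases from the start of the main GENCODE transcript for Rpsa and 73 bases for Rpl14. The gap was larger for several members counted as having a run, namely 2614 bases for Rpl18, 575 for Rps25, 493 for Rpl35, 301 for Rps10 and 281 for Rplp2, so their runs lie at another start. Members counted as lacking a run had gaps too, such as 221 bases for Rps19, 164 for Rps23, 153 for Rpl12, 137 for Rpl41 and 127 for Rpl22. Presence or absence of a run thus holds for the RefSeq start only.

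**Figure D1:**
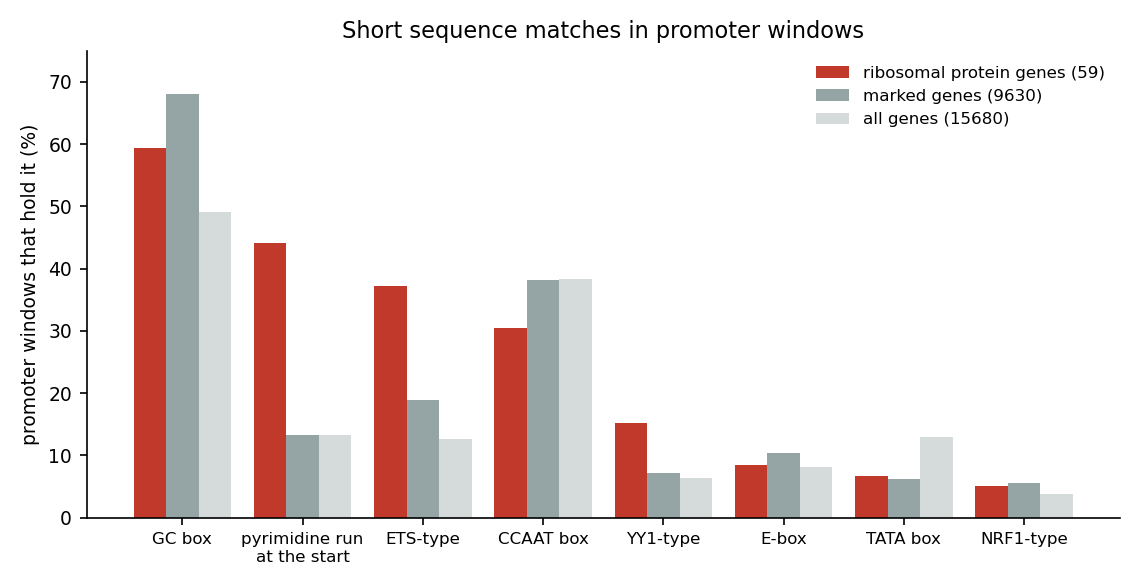
Share of promoter windows (%) that hold each motif or a pyrimidine run at the start, for ribosomal protein genes (red, left bars), marked genes (dark grey) and all genes (light grey). The pyrimidine run stood at 44.1% in ribosomal protein genes, 13.2% in marked genes and 13.4% in all genes. The ETS-type motif CCGGAAG stood at 37.3%, 18.97% and 12.6%, and AAGATGG at 15.3%, 7.17% and 6.44%. In percentage points, bars other than those of the run and CCGGAAG lay closer together.

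A gene is called marked when both replicates had an H3K4me3 peak no farther than 1 kb from 1 of its transcription start sites. Of 79 members, 76 were marked (96.2%), where 59.4% of autosomal protein-coding genes were. All 72 canonical members were marked, namely 29 of the small subunit, 40 of the large subunit and 3 of the stalk. The 3 members that were not marked were all l-form paralogs, Rpl10l, Rpl39l and Rpl3l.

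These 3 genes are paralogs known from tissues other than brain, Rpl10l and Rpl39l from testis and Rpl3l from heart and skeletal muscle. The peak nearest to the start of Rpl10l lay 936928 bp away in replicate 1 and 937952 bp away in replicate 2. Rpl3l (chromosome 17) had its nearest peak at 1579 bp in replicate 1, with a value of 7.79 tags per 10 M, and at 3443 bp in replicate 2, on the side of the neighbouring Rps2, whose start lies 7.76 kb away. Rpl39l (chromosome 16) had 1 peak within 1 kb in replicate 1, of 9.35 tags per 10 M at 142 bp, and none in replicate 2, where the nearest lay 22748 bp away. Rpl39l was therefore the member whose call turned on 1 library, and its single value was far below that of any marked member. Lists of peaks hold only what passed the authors' threshold, so an unlisted start is not shown to lack the mark.

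The other l-form paralogs carried H3K4me3 at levels within the range of the canonical genes. Rps27l had 289 and 305.8 tags per 10 M in replicates 1 and 2, against 213.5 and 245.4 for Rps27, so the paralog was higher in both replicates. Rpl22l1 had 240.7 and 293.1, against 366.2 and 380.4 for Rpl22, and was lower in both. Rpl7l1 had 163.6 and 203.6, against 268 and 267.8 for Rpl7, and was also lower in both. The Rpl7 values came from a different peak in each replicate, centred outside the gene at -230 and -947 bp from its start, which is upstream. They are thus not a repeated value of a single peak. Rpl3, the canonical partner of the unmarked Rpl3l, had 187 and 195.4. Which member of a pair is higher thus differed between pairs.

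The canonical partners of Rpl36al, Rpl10l and Rpl39l are X-linked and outside the rule. Rpl36al had 275 and 290.2 tags per 10 M, against 76.3 and 55.2 for Rpl36a. The centre of that Rpl36al peak lay outside the gene, at -358 and -284 bp from the nearest start, which is upstream. Mgat2 starts on that side on the opposite strand, 74 bp away, so the value cannot be assigned to Rpl36al alone. X-linked Rpl10 had 134 and 129, Rpl39 had 103.6 and 81.3, and Rps4x had 69.3 and 67.9. All 4 X-linked genes had a peak in both replicates, and of these only Rpl10 was above the lowest autosomal member in both. The paper states that its experiments with the wild-type strain used male mice. Values of X-linked genes were not adjusted for copy number, and its part in these differences was not tested.

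H3K4me3 at a gene is given as the value of its tallest peak within 1 kb of a start, in tags per 10 M mapped tags. Libraries held 12.8 M tags in replicate 1 and 13.4 M in replicate 2. The tallest peaks of marked members held 123 to 495 tags in replicate 1 and 154 to 599 in replicate 2, so counting error was small. Input tags at those peaks, scaled to the ChIP library, ran from 0.3 to 7.3 in replicate 1 and from 0.3 to 4.9 in replicate 2, and the median fold over input of marked members was 253 and 186, against 181 and 173 for all marked genes.

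Ribosomal protein genes had middling to high H3K4me3 with hardly any low values. The lowest, median and highest values of the 76 marked members were 95.8, 240.7 and 385.6 in replicate 1 and 114.9, 246.9 and 440.1 in replicate 2. All 12291 marked genes had a median of 215.8 in replicate 1 and 222.3 in replicate 2, and reached down to 3.9 and 3.73. On the mean of both replicates the median was 244.0 for members and 220.4 for all marked genes, and the median member stood at percentile 59.6. The members' medians in the 2 libraries differed by less than their distance from those of all marked genes. Both are medians over the same 76 genes, so their difference does not measure the spread between genes.

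Values of the members were less spread than those of marked genes in general, mainly at the lower end. The quartiles of the members were 200.8 and 286.0 tags per 10 M, a ratio of 1.42, against 126.5 and 282.4, a ratio of 2.23, for all marked genes. The upper quartiles were therefore close and the lower ones far apart. Above 100 tags per 10 M in both replicates were 75 of 76 members (98.7%) and 77.5% of all marked genes. No member lay below the 20th percentile of marked genes, and 6 lay above the 90th.

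**Figure D2:**
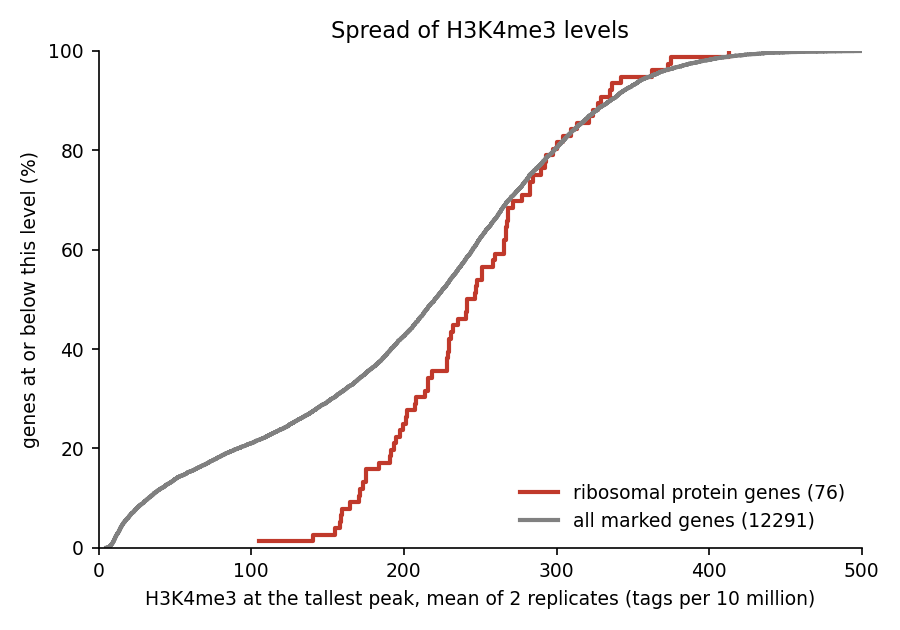
Cumulative share of genes (%) by H3K4me3 value at the tallest peak (mean of 2 replicates, tags per 10 M) for 76 ribosomal protein genes (red) and all 12291 marked genes (grey). The red curve starts at 105, while the grey curve starts at 4.93, and both run together above the upper quartiles of 286.0 and 282.4.

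The 6 highest members were Rpsa, Rpl14, Rpl22, Rpl27a, Rpl19 and Rps19. Rpsa, a small-subunit protein also known as the laminin receptor precursor, had 385.6 and 440.1 tags per 10 M in replicates 1 and 2, at percentile 98.9 of marked genes. Its tallest peak (chr9, on the mm10 build) lay over the untranslated first exon. Rpl14 had 345.9 and 404.3, Rpl22 had 366.2 and 380.4, Rpl27a had 346.7 and 378.9, and Rpl19 had 314 and 370.7. Rps19, the gene most often mutated in Diamond-Blackfan anaemia in humans, had 319.4 and 353.6. All 6 were higher in replicate 2 than in replicate 1, as were 47 of the 76 marked members.

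The 6 lowest marked members all encode large-subunit proteins, Rpl41, Rpl24, Rpl10a, Rpl27, Rpl12 and Rpl29. Rpl41, which encodes a very short basic peptide, had 95.8 and 114.9 tags per 10 M and was the lowest in both replicates. Rpl24 had 129.3 and 152.2, Rpl10a had 162 and 147.7, and Rpl27 had 156.6 and 159.6. Rpl12, at the base of the stalk, had 152.7 and 164.8, and Rpl29 had 149.6 and 169.3. The highest of all members had 3.92 times the mean value of the lowest.

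**Figure D3:**
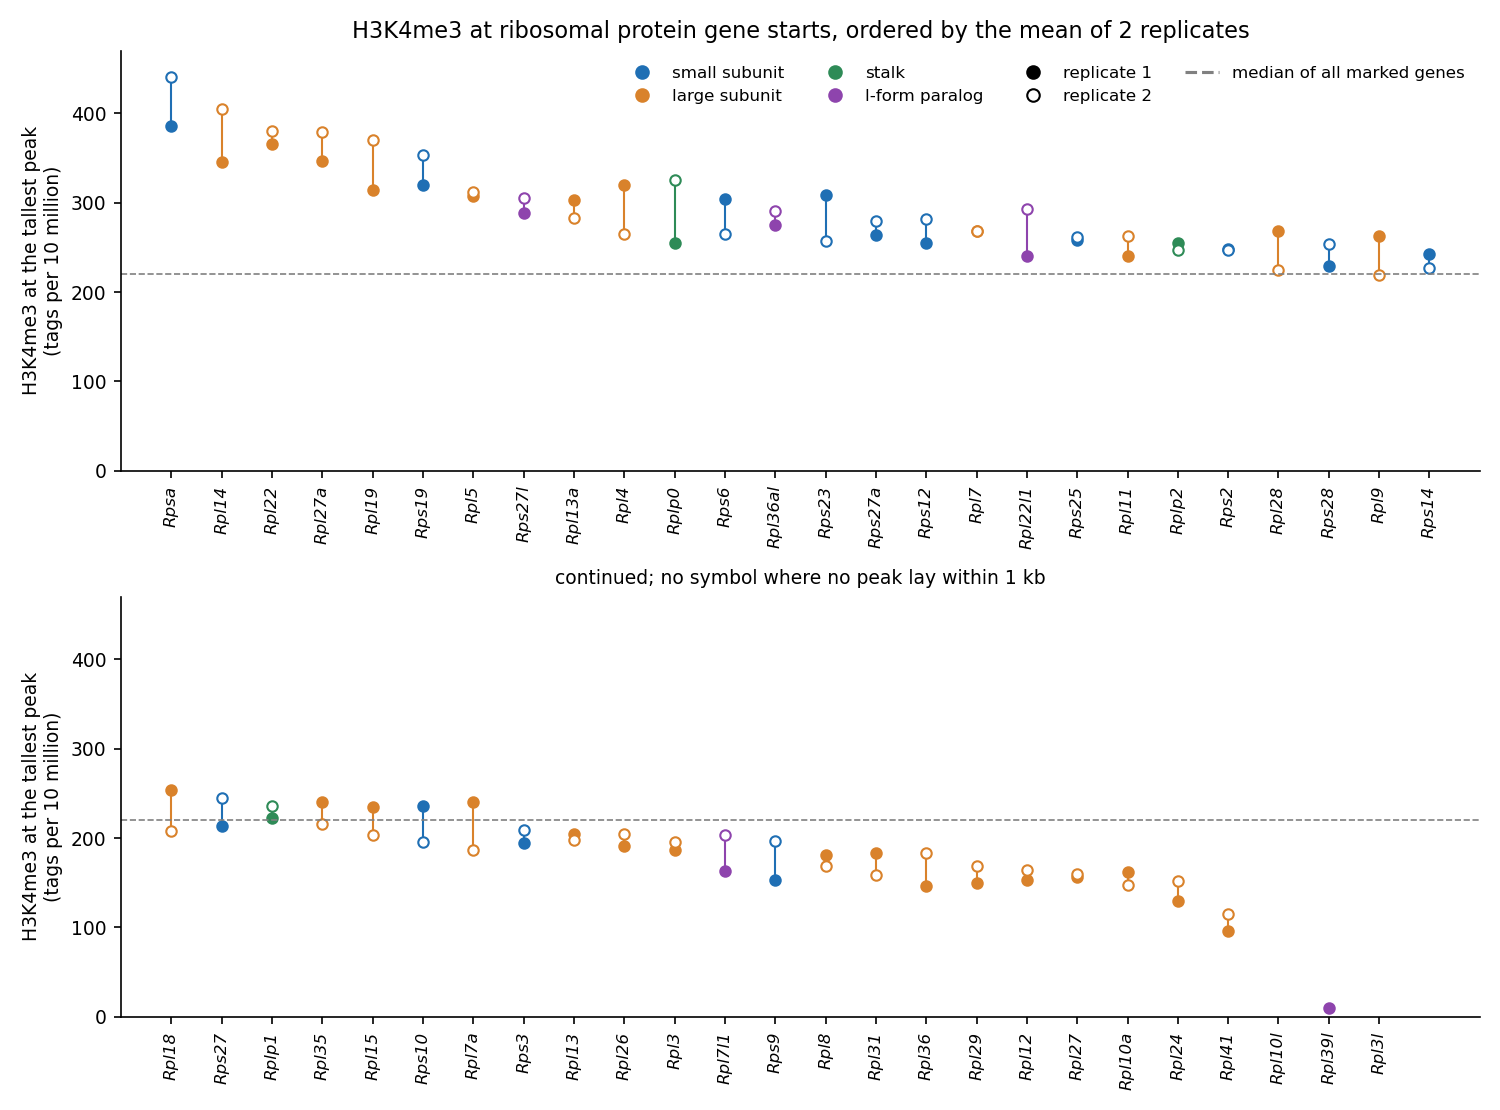
H3K4me3 at the tallest peak (tags per 10 M) of the ribosomal protein genes named in the text, filled points for replicate 1 and open points for replicate 2, joined by a line and coloured by subunit. Values descend from Rpsa at 385.6 and 440.1 to Rpl41 at 95.8 and 114.9, and Rpl39l has a single point at 9.35 while Rpl10l and Rpl3l have none.

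Of the 75 neighbouring pairs in this order, 74 had overlapping replicate values, and the exception was Rpl41, which lay below Rpl24 in both replicates. The log2 ratio of replicate 2 to replicate 1 had an SD of 0.19 over marked members and a median of 0.06, and counting error alone would give an SD of 0.12. All 76 marked members lay within 1.5-fold between replicates, as did 94.2% of all marked genes, which include many low peaks with larger counting error. At some members, such as Rpl7, Rpl9, Rpl18 and Rpl23, the tallest peaks of the replicates did not overlap. Their values thus compare different peaks. Across members the replicates had a Pearson correlation of 0.88 on the log2 scale and a Spearman correlation of 0.87 (n = 76 genes of the same 2 libraries).

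Among the members with the largest difference between replicates were Rpl7a, Rps9, Rplp0, Rpl36 and Rpl7l1. Rpl7a had 240.7 tags per 10 M in replicate 1 and 187.2 in replicate 2, a log2 ratio of -0.36. The others went the other way, with Rps9 at 153.5 and 196.9 (0.36) and Rplp0 at 254.8 and 325.2 (0.35). Rpl36 had 146.5 and 183.5 (0.32) and Rpl7l1 had 163.6 and 203.6 (0.32). These values show how far a single member can move between 2 libraries of the same group.

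By subunit, small-subunit genes stood somewhat above large-subunit genes, with wide overlap. The lowest, median and highest values of the 29 small-subunit genes were 153.5, 248.5 and 385.6 tags per 10 M in replicate 1 and 170.1, 261.8 and 440.1 in replicate 2. Those of the 40 canonical large-subunit genes were 95.8, 231.8 and 366.2 in replicate 1 and 114.9, 211.5 and 404.3 in replicate 2. The median was higher for the small subunit in both replicates, by less than the distance between quartiles of either group, 229.4 to 284.7 and 187.2 to 274.0 on the mean of both. In the stalk, Rplp0 had 254.8 and 325.2, Rplp1 had 222.8 and 235.7 and Rplp2 had 254.8 and 247.6.

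Several members are also known for roles outside protein synthesis or for a special make-up. Rpl5 and Rpl11, which bind MDM2 when ribosome assembly is disturbed, had middling to high values, Rpl5 with 307 and 312.5 and Rpl11 with 240 and 262.6 tags per 10 M in replicates 1 and 2. Rps6, the substrate of the S6 kinases, had 304.6 and 264.8. Rps27a, made as a fusion with ubiquitin, had 264.1 and 279, and Rps3, also known in DNA repair, had 194 and 209.6. Together with Rpsa, the highest member, these genes spread over much of the order.

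Many ribosomal protein genes host small nucleolar RNAs, which guide the modification of ribosomal RNA, in their introns. In the annotation 27 members held at least 1 snoRNA gene on their own strand and 52 held none. Values of the 27 hosts ranged from 152.7 to 385.6 tags per 10 M in replicate 1, with a median of 254.8, and from 164.8 to 440.1 in replicate 2, with a median of 265.5. The 49 marked members without one had medians of 240 and 235.7. The difference of medians was small beside the range of either set. Rpl4 held 5 annotated snoRNA genes and Rpl13a held 4.

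Peaks sat mostly just downstream of the start, as they did for other genes. The centre of the tallest peak lay a median of 172.5 bp downstream of the nearest annotated start in replicate 1 and 187.0 bp in replicate 2, against 144.0 bp and 142.0 bp for all marked genes. It was downstream in both replicates for 58 members (76.3%) and upstream in both for 12 (15.8%), against 75.2% and 15.4% of all marked genes. A peak overlapped a start itself in both replicates in 10 members (13.2%), against 13.4% of all marked genes. Ribosomal protein genes thus shared the general side of the start, with a somewhat larger median distance downstream.

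The tallest peak often lay over an intron. In replicate 1 its centre was in an intron of the gene for 48 members (63.2%), in a UTR exon for 16 (21.1%), in a coding exon for 5 (6.58%) and outside the gene for 7 (9.21%). For all marked genes the shares were 37.4%, 27.4%, 21.6% and 13.5%. The median length of a marked member was 3.33 kb, against 24.8 kb for all marked genes.

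**Figure D4:**
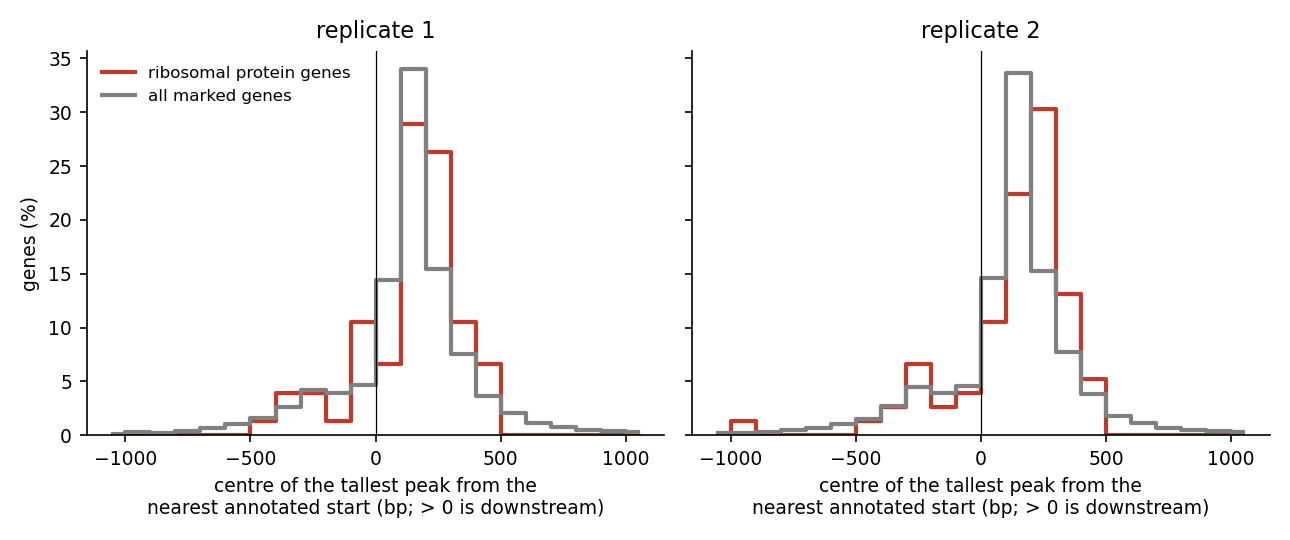
Share of genes (%) by the distance of the tallest peak's centre from the nearest annotated start (bp, positive is downstream, steps of 100 bp), for ribosomal protein genes (red) and all marked genes (grey) in each replicate. Both groups peak downstream of the start, with medians of 172.5 and 187.0 bp for ribosomal protein genes and 144.0 and 142.0 bp for all marked genes.

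The width of H3K4me3 was taken as the span of the tallest peak and any peaks joined to it over gaps of up to 1 kb. A single peak stood alone in both replicates at 36 of 76 members (47.4%), against 58.7% of all marked genes. At least 2 joined peaks were present in both replicates at 29 members (38.2%), against 26.9% of all marked genes. The remaining 11 differed between replicates. Averaged over both replicates, the median width was 418 bp in members and 186 bp in all marked genes. Within single replicates the members' median was that of 1 peak, 184 bp in replicate 1 and 188 bp in replicate 2.

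The 5 widest members were Rpl18, Rpl7, Rpl41, Rpl15 and Rpl7a. Rpl18 spanned 3494 bp in replicate 1 and 633 bp in replicate 2, so its rank rested on replicate 1. Rpl7 spanned 2128 and 1690 bp, Rpl41 spanned 1292 and 1376 bp, Rpl15 spanned 887 and 1774 bp, and Rpl7a spanned 894 and 991 bp. The narrowest were the 36 members with 1 peak in both replicates, which tie at the size of a single peak and are not ranked further. Rpl41 thus had the lowest value and one of the widest spans, in both replicates, and its span covered 63.0% of a gene that is among the shortest. In each replicate that span joined 2 peaks, of which only 1 lay within 1 kb of an Rpl41 start. It ran past the 3′ end of the gene, so it is not the width of the mark at the Rpl41 start. Across marked members, value and width showed no trend (Spearman correlation of 0.00067, n = 76 genes of the same libraries), against 0.17 over all marked genes.

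Some members share their promoter region with another gene. A protein-coding start on the opposite strand lay within 1 kb at 14 marked members (18.4%), against 17.2% of all marked genes, so divergent starts were about as frequent as in general. The closest pairs were Rps28 and Ndufa7 (10 bp apart), Rps27 and Rab13 (44 bp), Rpl9 and Lias (53 bp) and Rpl12 and Lrsam1 (55 bp). Others were Rpl15 and Nkiras1 (69 bp), Rpl18 and Sphk2 (69 bp), Rpl36al and Mgat2 (74 bp), Rps27a and Clhc1 (83 bp), Rpl7a and Med22 (87 bp) and Rps25 and Trappc4 (95 bp). A peak there cannot be assigned to one gene of the pair. Rps10 starts 6 bp from the readthrough gene RPS10-NUDT3 on its own strand.

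At divergent pairs the centre of the tallest peak lay closer to the start of the member, at medians of 48.5 bp in replicate 1 and -1.5 bp in replicate 2, against 208.5 and 226.5 bp downstream for the other members. Over all marked genes these medians were 71 and 65 bp at divergent genes and 152 and 151 bp at the others. The centre was upstream in both replicates for 6 of the 14 divergent members and for 6 of the other 62, and for 827 of 2112 divergent genes among all marked genes. The median width was 698 bp at divergent members and 297 bp at the others, against 635 bp and 186 bp over all marked genes. Median values were 241.9 and 236.4 tags per 10 M at divergent members in replicates 1 and 2, and 240.7 and 247.6 at the others.

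Processed copies of ribosomal protein genes are scattered through the genome, and few of their starts had a listed H3K4me3 peak. Of 250 autosomal genes named as pseudogenes of a member, 2 had a peak within 1 kb of their start in both replicates. Rpl29-ps2 had 153.5 and 138.7 tags per 10 M and lies within 2 kb of a protein-coding start. Rpl29-ps1 had 23.4 and 11.2 and was the only 1 of the 242 that lie farther away. How reads from near-identical copies were placed was not tested.

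PLAC-seq interactions with a member's start in an anchor bin were found for 37 of the 76 marked members (48.7%), where 37.8% of all marked genes had one. The mean number per marked member was 1.51, against 1.35 over all marked genes. These members took part in 115 interactions, grouped by the authors in 54 clusters, of 26689 in the list. Neighbouring bins of a cluster are not independent, the libraries were combined, and no replicate error can be given. The unmarked Rpl10l, Rpl39l and Rpl3l had none.

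The higher share of members with an interaction narrowed under stricter lists. With a false discovery rate of at most 0.0001 it was 27.6% of members and 24.6% of all marked genes, and with at least 20 read pairs 27.6% and 23.0%. With cluster summits alone it was 27.6% and 24.8%. The mean number per gene was lower in members with the lower false discovery rate, at 0.500 against 0.555 in all marked genes. With at least 20 read pairs it was 0.579 and 0.585, and with summits alone 0.342 and 0.337. It stayed higher in members in bins that hold no other protein-coding start, at 1.28 and 1.12, and with the main transcript's start only, at 1.38 and 1.22. Counting only interactions at bins that hold no other protein-coding start, the share was 43.4% of marked members and 30.7% of all marked genes. Genes without such a bin count there as having none. Among the genes alone in their start bins the share was 53.4% of members and 37.7% of all. With the start of the main transcript only, it was 46.1% and 35.9% of marked members and all marked genes. A bin of 5 kb is longer than most of these genes, so an interaction belongs to the bin and not to the start alone.

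Members with an interaction had somewhat more H3K4me3. Their mean values ranged from 140.8 to 412.9 tags per 10 M with a median of 268.4, and those of the 39 marked members without one from 105.3 to 342.4 with a median of 230.7. Over all marked genes the medians were 234.9 with and 210.7 without an interaction. Anchors were defined by H3K4me3 in the authors' calling, so the mark and the calls are not independent.

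The interactions were of ordinary length and strength. The distance between bins had a median of 135 kb, with quartiles of 75 and 185 kb and a range from 15 to 885 kb, against a median of 125 kb for all marked genes. Read pairs over expected had a median of 3.78, against 3.91 for all marked genes. Of the 37 members, 35 had all their interactions on 1 side of the gene, including 25 of the 27 with at least 2, and Rpl31 and Rps14 had them on both. Upstream of the member lay 70 of the 115 interactions and downstream 45.

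The other end held the start of another protein-coding gene more often than for genes in general. It did so in 29 of 115 interactions (25.2%), against 15.9% of 16647 pairs of a marked gene and an interaction, counted the same way from the end of the gene. Peaks in both replicates lay in 34 of the other ends (29.6%), against 21.5% for all marked genes. In 25 of the 29 bins with a start there was a peak in both replicates, and in 20 it exceeded 100 tags per 10 M in both. The 29 interactions belonged to 18 members and named 32 partner genes. None of the other ends held another ribosomal protein gene. Of 10 pairs of members within 1 Mb of each other, such as Rps2 and Rpl3l at 7.76 kb and Rps10 and Rpl10a at 693 kb, 0 were joined by a listed interaction.

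The 12 members with most interactions held 72 of them. Rpl13 on chromosome 8 had 11, all 180 to 270 kb upstream, across Ankrd11, a chromatin regulator gene mutated in KBG syndrome in humans. The strongest had 19 read pairs against 2.35 expected (ratio 8.07), to chr8:122830001-122835000 at 270 kb. The bin with an annotated start of Ankrd11 at 185 kb had 17 read pairs, a ratio of 4.83 and no listed H3K4me3 peak in either replicate. The bin with the start of the cadherin gene Cdh15 at 255 kb had a ratio of 3.68 and low H3K4me3 of 8.57 and 9.7 tags per 10 M. Rpl13 itself had unremarkable H3K4me3 of 204.9 and 197.7 tags per 10 M, at percentile 43.1 of marked genes.

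Rpl29 on chromosome 9 had 7 interactions and the strongest of all. The bin with the start of Poc1a, a centriole gene 145 kb upstream at chr9:106280001-106285000, had 37 read pairs against 4.02 expected, with a ratio of 9.21 and a false discovery rate of 8.69e-21. Bins within Poc1a at 120, 130 and 135 kb had ratios of 7.34, 7.28 and 7.17. The bin with the start of Alas1, the first enzyme of haem synthesis, at 180 kb had a ratio of 3.51 and H3K4me3 of 323.3 and 296.1 tags per 10 M. Rpl29 was thus among the 6 lowest members in H3K4me3 and among the first in interactions.

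Rpl3 on chromosome 15 had 7 interactions, all downstream, toward Pdgfb and Cbx7. The bin with the start of Pdgfb, a growth factor gene, lay 70 kb away and had 66 read pairs where 14.8 were expected, the most pairs of any member interaction, with H3K4me3 of 298.4 and 340.9 tags per 10 M. Beyond it, 4 bins of Cbx7, a Polycomb gene, lay 135 to 150 kb away, and the intronic bin at 135 kb had 31 read pairs and a ratio of 7.17. The bin with the start of Cbx7 at 150 kb had a ratio of 3.66.

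Rpl31 and Rpl8 followed with 7 and 6. Rpl31 had 4 around the start of Pdcl3, 365 to 390 kb upstream, the strongest at 380 kb with a ratio of 5.61, and 3 in bins without a protein-coding gene 135 to 160 kb downstream. Rpl8 reached a gene-dense stretch 175 to 365 kb upstream. Its partner bins held the starts of Fbxl6 and Slc52a2, of Cyhr1 and Kifc2, of Lrrc14 and Recql4 and of C030006K11Rik and Lrrc24, with ratios from 2.89 to 4.04 for these 4 bins. No other member had as many partner bins with a start.

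Rps14, with 6, shows how the annotation bears on the count. It has starts annotated in several bins, and 4 of its interactions were at a distal start that shares its bin with Ndst1. At the bins of its main gene body it had 2, to the bin of an Ndst1 start 60 kb upstream with 28 read pairs and a ratio of 5.93, and to Camk2a 200 kb downstream with a ratio of 3.24. That Ndst1 bin held no listed H3K4me3 peak in either replicate. Rpl4, which shares its bin with Zwilch, had 5 around Map2k1, a kinase of the MAPK pathway, 75 to 105 kb downstream, the bin with the start of Map2k1 having a ratio of 2.38.

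The remaining members of the 12 were Rpl7l1, Rplp0, Rps27a, Rpl28 and Rps12. Rps27a, which shares its bin with Clhc1, had 5 interactions with Rtn4, the Nogo gene, and the intronic bin 150 kb upstream had 28 read pairs and a ratio of 7.77, and the bin with an Rtn4 start at 145 kb a ratio of 5.01. Rplp0 had 5 within 75 kb upstream, toward Pxn, which encodes paxillin, and Sirt4. The bin with the start of Pxn at 50 kb had 38 read pairs, a ratio of 3.29 and H3K4me3 of 403.6 and 465.5 tags per 10 M. The bin with the start of Sirt4 had 39 and 68.6 tags per 10 M. Rpl7l1 had 5 in and beyond Bicral 55 to 100 kb upstream. Rps12 had 4 around Stx7, a syntaxin gene 345 to 375 kb away, with a ratio of 3.91 for the bin with its start, and Rpl28 had 4 across 85 to 240 kb, the farthest in Ptprh with a ratio of 6.02.

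Of the 8 strongest single interactions by read pairs over expected, 4 were those of Rpl29 with Poc1a and 1 each belonged to Rpl13, Rps27a and Rpl3 as given above. The remaining 1 was that of Rps23 on chromosome 13, the only interaction of that gene and the longest of any member. It joined Rps23 to the bin with the start of Zcchc9, 885 kb away, by 12 read pairs against 1.61 expected (ratio 7.45). The Zcchc9 bin had H3K4me3 of 342.8 and 339.4 tags per 10 M.

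Further promoter partners, of members with fewer interactions, were as follows. Rps10 contacted the starts of Hmga1 at 75 kb (ratio 3.05) and AI413582 at 65 kb (3.34). Rpl22 contacted Acot7 at 150 kb (3.44) and Hes2 at 170 kb (3.22), and Rpl35, in a bin shared with Arpc5l, contacted Nr6a1 at 80 kb (2.67) and Olfml2a at 75 kb (2.83). Rpl24 contacted Trmt10c at 70 kb (2.75) and Rpl26 contacted Rangrf at 70 kb (2.48). H3K4me3 was low in the bins of Hes2 (15.6 and 19.4 tags per 10 M in replicates 1 and 2) and Olfml2a (23.4 and 36.5). It was 81 and 82.1 in the Rangrf bin, and above 100 in both replicates in the other partner bins of this paragraph.

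A single interaction of Rpsa is named here because of its partner, and was chosen after its values were seen. It joined the Rpsa bin to chr9:120025001-120030000, 100 kb upstream, within an intron of Cx3cr1, the fractalkine receptor gene used to sort these cells. It had 16 read pairs against 3.72 expected, with a ratio of 4.30 and a false discovery rate of 0.000147. The partner bin held no peak in either replicate, and Cx3cr1 itself had 225.2 and 197.7 tags per 10 M at its start.

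**Figure D5:**
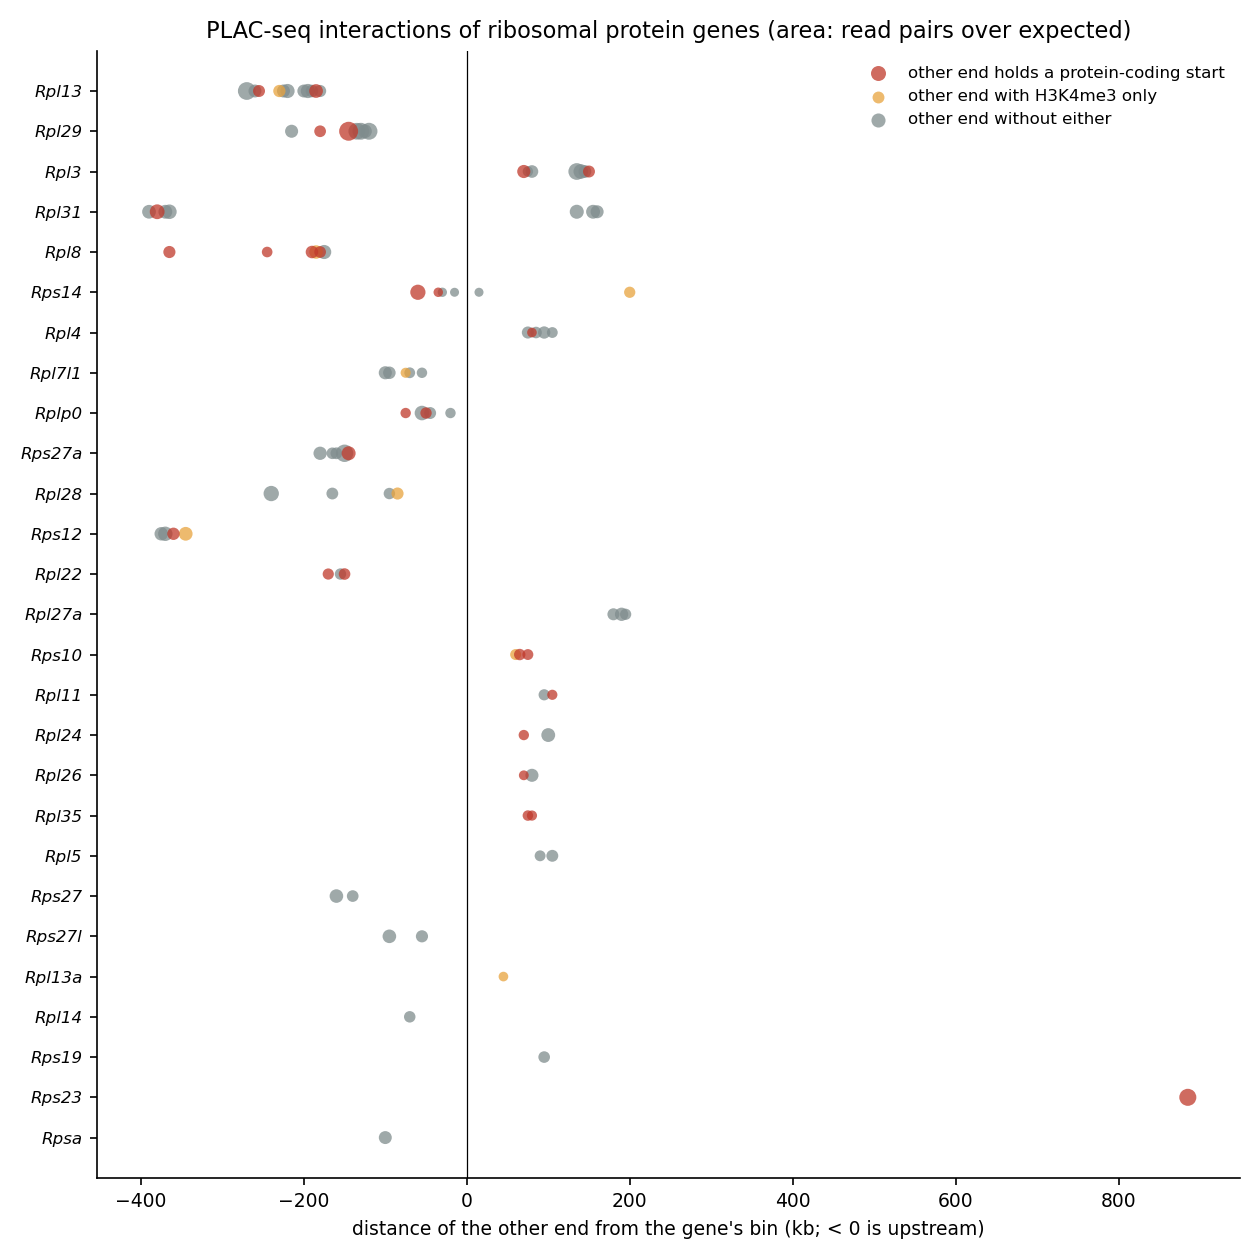
Interactions of the ribosomal protein genes named in the text that had any, by distance of the other end from the gene's bin (kb, negative is upstream), with point area for read pairs over expected and colour for what the other end holds. Rpl13 has 11 points on one side, Rpl29 the strongest at a ratio of 9.21, and Rps23 a single point at 885 kb.

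Genes that encode ribosomal proteins under other symbols had values like those of the members. Fau had 293.7 and 334.2 tags per 10 M in replicates 1 and 2, Rps3a1 had 218.9 and 249.9, and the ribosomal scaffold Rack1 had 186.2 and 164.8. These 3 genes had 0 interactions, and their values lay within the range of the members.

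Other genes of the translation pathway were marked as completely as the members. All 37 autosomal initiation and elongation factors listed were marked, with a median of 303.6 tags per 10 M on the mean of both replicates, 271.9 in replicate 1 and 310.3 in replicate 2. Among them, Eef1a1, which delivers aminoacyl-tRNA, had 297.6 and 309.6, and Eef2, the translocase, had 211.1 and 200.7. All 43 autosomal ribosome biogenesis genes listed were marked, with a median of 259.6, and nucleolin (Ncl) had 292.9 and 352.1. Both medians were above the 244.0 of the ribosomal protein genes. Interactions were found for 14 of the 37 factors (37.8%) and 17 of the 43 biogenesis genes (39.5%).

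The cell type in the labels was checked with marker lists. All 17 autosomal microglia markers were marked, with values from 109.1 to 343.6 in replicate 1 and from 140.2 to 358.8 in replicate 2, and summed values of 3563 and 3640 tags per 10 M. Marked in both replicates were 3 of 8 neuron markers (summed 30.4 and 44.0), 4 of 8 astrocyte markers (246.9 and 262.6), 4 of 9 oligodendrocyte markers (338.1 and 356.5), 2 of 7 endothelial and mural markers (63.9 and 78.3) and 1 of 11 markers of border macrophages and blood leukocytes (15.6 and 11.9). Gfap and Aqp4 of astrocytes, Mog and Sox10 of oligodendrocytes and Cdh5 of endothelium had no peak in either replicate, and Mag, Cldn5 and Rbfox3 had one in replicate 1 only, of 6.23, 7.79 and 10.9 tags per 10 M. Other markers of these lists had peaks in both replicates, with 204.9 and 212.6 for Slc1a3 of astrocytes, 162.8 and 210.3 for Mbp and 148 and 123.1 for Cnp of oligodendrocytes, and 48.3 and 67.1 for Flt1 of endothelium. Those of Slc1a3, Mbp and Cnp lay in or near the range of the microglia markers. The part of other cells in the H3K4me3 of ribosomal protein genes, which every cell type uses, was not tested. Whether the libraries come from different animals is unstated in the labels, and the spread between replicates may be technical only.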

How the data were processed

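H3K4me3 ChIP-seq, its input and PLAC-seq libraries of sorted wild-type mouse microglia were used as grouped in the labels. Bowtie2, HOMER and the mm10 build are named in the submitters' processing notes. The authors deposited 1 peak list for each H3K4me3 library, and peaks have a set size per list, 184 and 188 bp (27845 and 26574 peaks). The authors scaled the deposited signal of a peak to 10 M mapped tags. The deposited tag count, the input signal, the authors' fold over input (a ratio) and the share of tags near the centre (a fraction) were read from the same lists. For PLAC-seq, the study's methods name MAPS at 5 kb with H3K4me3 peaks as template, and the authors' list pools both libraries. It holds the deposited read pair count, the expected count and the authors' false discovery rate, an adjusted p-value, of at most 0.01, with at least 7 read pairs and 2.00 times the expected count per interaction. The depth of PLAC-seq is unknown.

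Genes and starts came from the basic set of GENCODE M21 (GRCm38, the same coordinates as mm10), and entries that share a symbol were merged. Distances, joined spans, interaction counts per start bin, motif shares and correlations were computed with Python 3.11.15, pandas 2.3.3, numpy 2.4.6 and scipy 1.17.1, and the counting steps were tested on simulated data. For a member with several RefSeq promoter windows, the one nearest to the start of its main transcript was taken. Members without a window included Rpl3, Rpl7, Rpl8, Rpl29, Rpl36, Rplp1, Rps14 and Rps27a. No test was run, since all values belong to 1 group and the members are set beside all genes as a description.

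Members and gene lists were chosen with earlier results of these data known. Named were members not marked in both replicates, the 6 highest and 6 lowest by mean value, the 6 with the largest ratio between replicates, the 12 with most interactions, the 8 strongest interactions, the 5 widest and 5 narrowest, l-form paralogs with their partners, genes whose start lies in a partner bin, and Fau, Rack1 and Rps3a1. Some genes that this rule names are not reported here. Other members were named for their known role or their place in the annotation after their values were seen. Hi-C was not analysed here.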

Additional observations from a re-analysis of the deposited data

How the results depend on the processing

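No paired analysis was possible because no groups were compared. The number of marked members was 76 within 500 bp, within 2 kb and with a fold over input of at least 10, and 76 to 77 when either replicate was left out. It fell to 10 when a peak had to overlap the start itself. The median H3K4me3 of 244.0 tags per 10 M became 299 with the sum of all peaks within 1 kb and ran from 240.7 to 246.9 without either replicate. The median percentile of 59.6 became 64.2 with the sum of peaks, 57.3 with the authors' fold over input and 58.5 without l-form paralogs, and ran from 59.8 to 62.0 without either replicate, so it stayed above the middle in each of these. The median width of 418 bp was 186 with gaps of up to 500 bp, 427.5 with gaps of up to 2 kb and 184 to 188 in single replicates. Members with an interaction numbered 21 of 76, in place of 37, with a false discovery rate of at most 0.0001, with at least 20 read pairs and with cluster summits alone. The mean number per marked member, 1.51, became 0.500, 0.579 and 0.342 under these, and 2.64 with 1 more bin on each side of the start bin. For all marked genes the mean of 1.35 became 0.555, 0.585, 0.337 and 2.31, so the members stood below them in the false discovery rate and read pair settings. The depth of the H3K4me3 libraries limits calls near the threshold, such as Rpl39l, and the unknown depth of PLAC-seq limits what an absent interaction means.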

Other observations

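Mitochondrial ribosomal protein genes, a list chosen after the values of the cytosolic genes were seen, had similar H3K4me3. All 78 autosomal genes with symbols Mrpl or Mrps and a number were marked. The cytosolic genes had median values of 240.7 and 246.9 tags per 10 M in replicates 1 and 2, and the mitochondrial genes 230.6 and 246.9. The mitochondrial genes ranged from 93.5 to 357.6 in replicate 1 and from 94.7 to 461 in replicate 2. Interactions were listed for 48.7% of marked cytosolic and 37.2% of mitochondrial ribosomal protein genes. The difference between both lists was not tested.

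Promoter windows with and without the pyrimidine run had like levels among members. The 26 marked members with a run ranged from 171.0 to 375.1 tags per 10 M with a median of 246.9, and the 30 without one from 105.3 to 412.9 with a median of 241.1. Both classes rest on the RefSeq start, which for some members is not the main GENCODE start. For CCGGAAG the medians were 247.2 in 21 members with it and 241.3 in 35 without it.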
